A study of Anopheles gambiae with 5 samples.

Results

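The acetylation of lysine 27 of histone H3 (H3K27ac) was mapped by chromatin immunoprecipitation and sequencing in the midgut of the malaria mosquito Anopheles gambiae, and the peaks described here are all 6639 regions that the authors called for this mark against input chromatin, of 19578 regions called for both marks of the series. The chromatin came from pooled midguts of adult females of the strain Kisumu, dissected at 6 to 8 days of age and kept on sugar solution as adults, and the input was set aside from the precleared chromatin before the antibody step. There is 1 H3K27ac library (antibody ab4729) and 1 input library, so no spread between animals can be given and nothing is tested between conditions. The midgut is a mix of cell types, and a region called in the pool may be acetylated in all of them or in a part.

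H3K27ac is laid down by CBP-type acetyltransferases, neutralises the charge of the lysine and cannot stand on the same residue as the methylation that Polycomb complexes deposit. In Drosophila it is found at promoters and enhancers of active genes and over the first part of their bodies, and it is widely used to mark regulatory DNA in use. The midgut of the female mosquito digests the blood meal, and it is the epithelium that Plasmodium must cross.

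Peaks were assigned to genes by position. A gene was the span of its assembled transcripts that match the intron chain of an annotated transcript (class "=" of Cuffcompare) with 200 bp added on each side, and a peak belonged to every gene with which it shared at least 1 bp. This gave 11868 genes on the chromosome arms and the unplaced sequence (UNKN), with 12780 distinct transcription starts. A further 1234 annotated genes had transcripts of other classes only and were not used, so a peak called outside genes here may lie in one of those. Of the 6639 peaks, 4221 (63.6%, 95% Wilson interval 62.4 to 64.7%) touched a gene. The intervals count peaks or genes and do not cover the spread between animals. Coordinates are those of AgamP4, counted from 1.

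The targets of the study's control PCR show what the list holds at a constitutive gene. Act5C (AGAP000651), a cytoplasmic actin gene of the minus strand (X, positions 11655373 to 11664337), lay under peaks with scores of 739 and 535, which were 91 bp apart. The second peak was 17889 bp long, touched 2 genes and ran to position 11677540, far upstream of the Act5C start. TER94 (AGAP005630), an AAA ATPase gene of the minus strand (2L, positions 18009937 to 18015089), had a single peak with a score of 1485 over its start. The primers with which the study assayed these genes are shown because they define the control sites at which it assayed the mark. The positions of the primers in the assembly were not looked up, as no genome was used here. Nor was the intergenic region upstream of these genes that the study used as a negative control. For Act5C that region may fall inside the second peak.
Act5C, first primer: ggttttaagcacgaaaaactgg
Act5C, second primer: cgatccggagaggtcctac
TER94, first primer: tcgattcgactcaagcttcc
TER94, second primer: agtcatcgtcatcgctgctt

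Markers of the tissue were only partly acetylated. Of the 6 carboxypeptidase B genes, whose products digest peptides in the gut, 3 carried a peak, with scores from 57.3 to 697, while 34.8% of all 11868 genes carried at least 1 peak. Of 12 genes that mark haemocytes (9 prophenoloxidases, TEP1, LRIM1 and APL1C) none carried a peak, and neither did the fat body gene Vg, which encodes the yolk precursor vitellogenin.

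Most genes with H3K27ac had a single peak. Peaks were found on 4131 genes (34.8%, interval 34.0 to 35.7%), of which 3373 (81.7%) had 1 peak, 540 (13.1%) had 2 and 218 (5.28%) had 3 or more, with 12 as the highest number. In the other direction, 3291 peaks touched a single gene, 779 touched 2 genes and 151 touched 3 or more, with 5 genes at most under 1 peak. Peak number followed gene length. The median length was 1711 bp for the 7737 genes without a peak, 2334 bp for genes with 1, 6494.5 bp for genes with 2 and 18681 bp for genes with 3. A transcription start of the gene was inside a peak in 3258 (78.9%) of the marked genes, or 27.5% of all genes.

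The share of genes with any peak rose with length up to the class of 5000 to 10000 bp and no further, while the share with several peaks went on rising. Among genes under 1000 bp, 499 of 2790 (17.9%, interval 16.5 to 19.4%) carried a peak, and only 17 carried 2. The share was 34.2% at 1000 to 2000 bp, 39.6% at 2000 to 5000 bp and 46.9% at 5000 to 10000 bp. It then stayed at 45.4%, 46.1% and 45.1% in the classes of 10000 to 20000 bp, 20000 to 50000 bp and over, whose intervals overlap. Over the same classes the share of marked genes with 2 or more peaks was 3.41% in the shortest, 19.3% at 5000 to 10000 bp, 43.7% at 10000 to 20000 bp and 62.9% in the longest. Per 10000 bp of gene region, the number of peaks fell from 1.96 in the shortest class to 0.140 in the longest. A peak has a length of its own, so a short gene is reached by neighbouring peaks more often per base than a long gene.

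**Figure D1:**
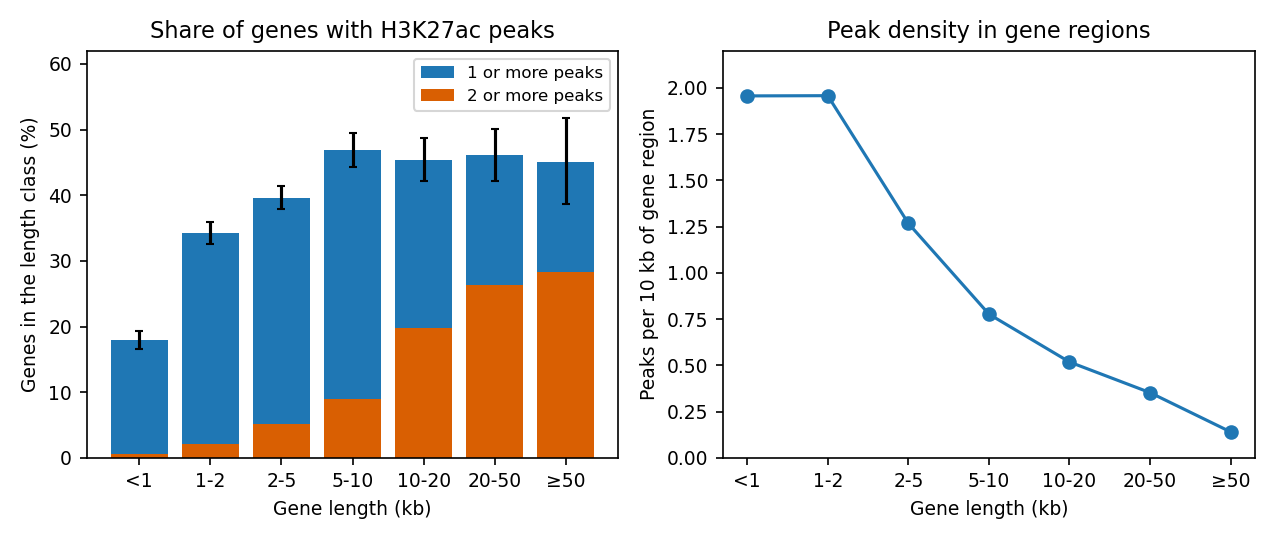
H3K27ac peaks by gene length. Left, the percent of genes in each length class (kb) with 1 or more peaks (blue, bars of 95% Wilson intervals) and with 2 or more (orange), which rises to 28.4% in the longest class while the blue bars level off near 46%. Right, peaks per 10 kb of gene region, which fall from 1.96 to 0.140.

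The percent of a marked gene under peaks fell as genes grew. It is divided by gene length, and peaks had a median length of 2048 bp, so a fall follows from the measure itself. Marked genes under 1000 bp were covered whole at the median (100%), those of 1000 to 2000 bp to 67.0%, those of 5000 to 10000 bp to 26.4% and those of 50000 bp and over to 6.05%. The start of the gene was inside a peak in 82.7% of marked genes of 2000 to 5000 bp, in 65.2% at 20000 to 50000 bp and in 43.3% of the longest. In the longest class most marked genes thus had no peak over a class "=" start, and starts of other transcripts were not counted here.

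AGAP001786, on 2R from 10352196 to 10463397 on the plus strand, had the most peaks of any gene, 12. Of these, 11 lay in introns with no exon touched, and none covered its start. Their scores ran from 50.8 to 3204, with a median of 154, and the strongest peak had its midpoint 83433 bp from the start. The peaks were 559 to 36569 bp apart.

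AGAP005715, on 2L from 19502647 to 19539694 on the plus strand, had 9 peaks which together covered 83.3% of its body. In order from the start their scores were 2407, 57.1, 1030, 2251, 606, 427.0, 310, 400.3 and 1855. The peak over the outermost start was the highest, the fourth covered a further start, and the weakest stood next to the first. Of the 8 gaps between them, 6 were under 500 bp, and the gene had 3 peaks where such gaps were closed. AGAP002858, on 2R, had 7 peaks over 76.2% of its body with gaps of 105 to 503 bp, and 2 peaks after joining. In AGAP001786 no gap was that short and the number stayed at 12.

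The other genes among the 10 with the most peaks were AGAP002942, AGAP004775, AGAP002161, AGAP009207, AGAP003238 and AGAP002114, all with a peak over a start, and AGAP009522 with none. Their lengths ran from 22115 bp (AGAP002114) to 107122 bp (AGAP002942), and the share covered from 25.4% (AGAP002942) to 83.7% (AGAP004775). Some peaks of AGAP004775 also covered starts of AGAP004776, AGAP004777, AGAP004778 and AGAP013620. In AGAP002942 the start peak scored 138 while a peak 54603 bp from the start scored 679. In AGAP002114 the start peak, with 2147, was the highest of 7, the next being 1504 at the far end of the gene. That peak touched a promoter and ran from 15754241 to 15758624, mostly past the gene's end at 15758127. Neither the number of peaks nor the coverage thus fixed where the strongest peak of a gene lay.

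The number of genes with 2 or more peaks, 758 (6.39% of all genes), was 468 where at least 50% of a peak had to lie in the gene, 1376 with 1000 bp flanks and 316 with only the peaks at or above the median score. Of the 758, 550 had their start inside exactly 1 peak, 47 inside several and 161 inside none. In the 550, the start peak was the highest-scoring of the gene in 312 (56.7%, interval 52.6 to 60.8%). Start peaks had a median score of 435 and a median length of 2412.5 bp, and the 806 other peaks of these genes had 226 and 1984.5 bp. Of the 410 genes with just 2 peaks, the start peak was the higher in 251 (61.2%). Neighbouring peaks of a gene were a median of 961.5 bp apart, with quartiles of 213 and 3314.5 bp, and 452 of 1196 such gaps (37.8%) were under 500 bp.

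The score of a peak is the value that the authors' caller, MACS, gave to its enrichment over input. It is on a scale of -10 log10 of a p-value, and only peaks past the authors' p-value cutoff are listed. Scores ran from 50.02 to 3233.06, with quartiles of 107, 244 and 629, so most lay in the lower part of this range. Under 100 were 1516 peaks (22.8%), and 972 (14.6%) had 1000 or more. The scale is bounded at its upper end. The highest score equals -10 log10 of the smallest positive number that double precision can hold, 3233.06, and 93 peaks had exactly 3100, while no other score occurred more than 4 times. Only 13 peaks lay above 3100, from 3111 upward, and the next below was 3090. The order among these 106 peaks at 3100 or more is therefore not used as an order of enrichment.

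The 106 peaks at the upper end were not confined to promoters. A gene was touched by 74 of them (69.8%, interval 60.5 to 77.7%) and a promoter, defined as 200 bp on each side of a start, by 57 (53.8%, interval 44.3 to 63.0%). The 93 at exactly 3100 were long, with a median of 6369 bp and a range of 2463 to 17520 bp, against a median of 2048 bp for all peaks. The 10 highest listed scores are given as examples only, since the order among the 106 is not one of enrichment. Of these 10 peaks, 6 touched no gene, and 2 covered the start of AGAP000765 (score 3227) and of AGAP006246 (score 3225). A further 1 was in an intron of AGAP001786, and 1 lay over exons of AGAP004050 (score 3138), 22613 bp from the nearest start.

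Score rose with peak length. Spearman's rho between them was 0.71 over the 6639 peaks, which share 1 library and 1 caller and are described without a test. In 5 length classes of nearly equal size the median score was, from short to long, 85.6, 152, 234, 436 and 1040. Promoter peaks scored higher than the others, with a median of 310 (quartiles 132 and 763) in 2988 peaks against 205 (quartiles 93.9 and 509) in 3651. Their lengths hardly differed, with medians of 2092.5 and 2011 bp. In each of these classes the promoter peaks had the higher median: 89.3 against 83.4 in the shortest, 184 against 122, 321 against 186, 538 against 376, and 1184 against 922 in the longest. The quartiles overlap widely, and a score does not tell where a peak lies.

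**Figure D2:**
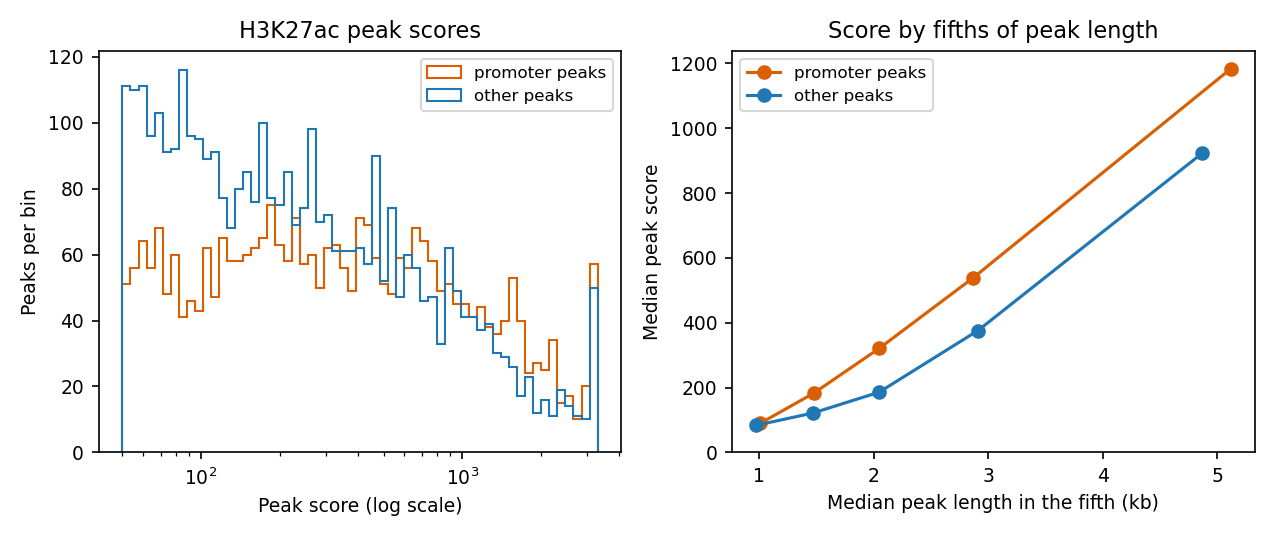
Scores of H3K27ac peaks. Left, the number of peaks per bin of score (log axis) at promoters (orange) and elsewhere (blue), with a spike at the upper end from the 93 peaks at 3100. Right, the median score in each of 5 classes of peak length against the median length of the class (kb), where promoter peaks lie above the others in all 5, by the most in ratio in the middle class (321 against 186).

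Other places ranked below promoters in score. Peaks over exons with no promoter (644) had a median of 228, peaks outside genes (2418) of 211 and peaks touching introns only (557) of 154. The 32 peaks that reached only the 200 bp flank of a gene had 256. Score also went with the number of genes whose start a peak covered. It was 205 at the median for the 3853 peaks with none, 295 for 2326 peaks with 1, 442 for 409 peaks with 2 and 822 for 51 peaks with 3 or more. The median length in these groups was 2002, 1972, 2649 and 4635 bp, so the last groups were also longer. On the chromosome arms the median score was between 239 on 3L and 253 on 2R.

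H3K27ac lay near starts but was centred beside them. The midpoint of a peak was a median of 2416 bp from the nearest start, with quartiles of 576 and 9322 bp, measured from class "=" starts. The median was 821 bp from the starts of every assembled transcript and 903 bp from the nearest peak edge to a class "=" start, so the distance depends on which starts are counted. Only 525 midpoints (7.91%) lay within 200 bp of a start, whereas 2786 peaks (42.0%, interval 40.8 to 43.2%) covered a start. Within 1000 bp were 35.9% of midpoints, and within 10000 bp 76.2%. From class "=" starts, 1578 midpoints (23.8%) were 10000 bp or more away.

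The side of the start on which the midpoint fell depended on the distance. Under 200 bp, 57.7% (interval 53.4 to 61.8%) were on the transcribed side. This was 79.1% (76.4 to 81.6%) from 200 to 500 bp, 77.4% from 500 to 1000 bp and 67.7% from 1000 to 2000 bp. From 2000 bp on it was 55.8%, 56.0% and 57.0% in successive classes. Peaks centred 200 to 500 bp from a start had a low median score, 174, and were short (1365.5 bp), and those at 1000 to 2000 bp had the highest, 416, and were the longest (2651.5 bp). Beyond 10000 bp the median score was 199.

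In peaks over the start of a single gene, the upstream edge lay closer to the start than the downstream edge. For 1818 peaks that covered the start of the only gene they touched, the upstream edge was a median of 288 bp from the outermost start (quartiles 152 and 862 bp). In 860 of them (47.3%, interval 45.0 to 49.6%) it fell between 100 and 400 bp, and in 399 (21.9%) it was 1000 bp or more away. Peaks that reached a neighbouring gene were left out, which limits the upstream reach more than the reach into the gene itself. The downstream edge was a median of 1325 bp away (quartiles 842 and 2165 bp). The peak reached farther downstream than upstream in 1477 of the 1818 (81.2%, interval 79.4 to 83.0%). In 228 (12.5%) it ran past the other end of the gene. Among the 756 such peaks on genes of 5000 bp or longer, where the gene end sets less of a limit, the medians were 301 bp upstream and 1850.5 bp downstream.

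Around the starts of long genes the mark fell off over a short stretch upstream. Of the 1441 marked genes of 5000 bp or longer, 69.6% were inside a peak at the outermost start, 72.7% at 200 bp and at 300 bp downstream, 62.8% at 1000 bp and 42.3% at 2000 bp. On the upstream side it was 51.9% at 200 bp, 43.9% at 300 bp, 32.4% at 1000 bp and 26.1% at 2000 bp. At 5000 bp the values were 22.6% downstream and 19.6% upstream. These genes were chosen for a peak in the gene or its flanks, which favours the downstream side. Over all 3121 genes of this length, marked or not, 33.6% were inside a peak 200 bp downstream and 24.0% at 200 bp upstream, while at 5000 bp the order turned, with 10.4% downstream and 12.2% upstream. The nearness of a neighbouring gene on the upstream side was not taken into account.

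**Figure D3:**
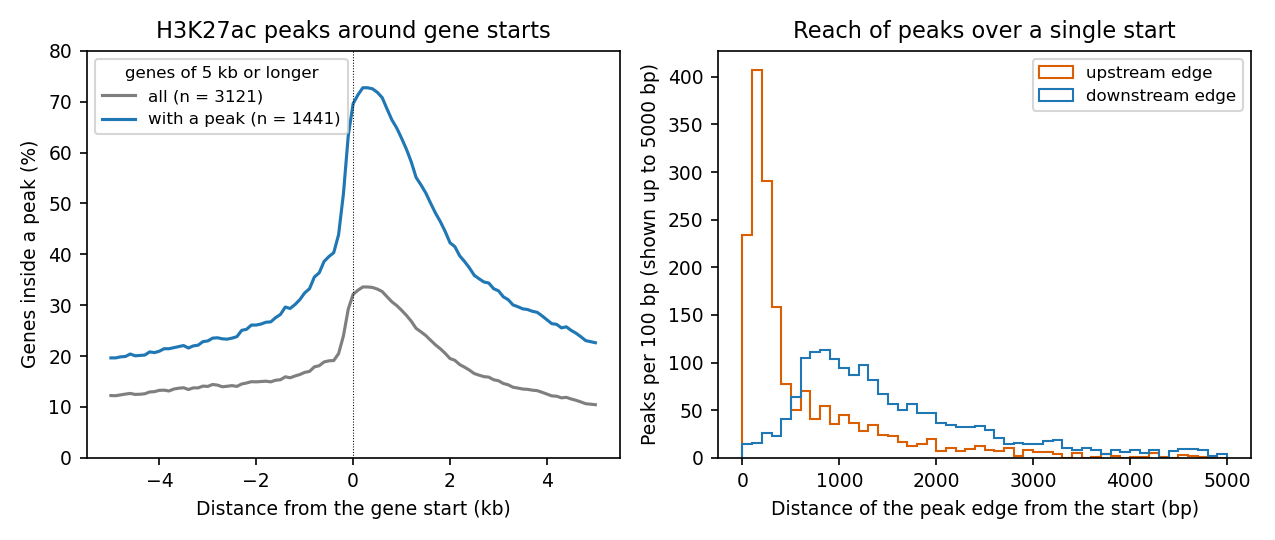
H3K27ac peaks around gene starts. Left, the percent of genes of 5 kb or longer that are inside a peak at each distance from the outermost start (kb, downstream positive), for all 3121 (grey) and for the 1441 with a peak (blue), highest at 200 to 300 bp downstream (72.7%). Right, the distance (bp) of the upstream (orange) and downstream (blue) edge from the start for 1818 peaks over a single start, with medians of 288 and 1325 bp.

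In the class "=" models exons were covered more densely than introns, and more of the acetylated sequence was intronic. Each base of the stretch between the first and the last assembled transcript of a chromosome was given to an exon first, then an intron, then a 200 bp flank and then the rest. Peaks covered 6.44% of it. They covered 14.4% of exon bases, 10.5% of intron bases, 24.1% of the bases 200 bp upstream, 8.04% of those 200 bp downstream and 4.22% of the rest. Of the 17548100 bp under peaks, 19.7% were exons, 29.5% introns, 3.86% flanks and 46.9% lay outside the genes used, a class that also holds the genes and isoforms of other classes. With the exons of every assembled transcript the exon share was 40.6%, so the order of exon and intron shares holds for the class "=" models only. Of the 2418 peaks outside these genes, 2043 (84.5%, interval 83.0 to 85.9%) overlapped another assembled transcript.

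First exons and the 200 bp before the start held the mark most densely, and first introns more densely than other introns. Peaks covered 31.2% of first exon bases, 11.7% of inner exon bases and 9.88% of last exon bases, and 15.1% in transcripts with a single exon. They covered 16.0% of first intron bases and 7.08% of other intron bases. Set against their share of the sequence, first exons were 4.85 times as frequent in peaks, upstream flanks 3.75 times and first introns 2.48 times. The midpoint of 1246 peaks lay in a first intron, against 643 in a first exon.

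Coverage fell with each step into the gene. In the longest transcript of 2167 marked genes with 4 or more exons, peaks covered 71.3% of the bases of the first exon, 44.9% of the second, 31.0% of the third, 12.2% of those in between and 11.5% of the last. For introns these values were 31.5%, 23.7%, 17.2%, 12.5% and 7.93%. The first intron was touched by a peak in 1759 genes (81.2%) and the first exon in 1704 (78.6%), while the last exon was touched in 529 (24.4%). Between the third and the last, exons and introns were thus covered alike. The value for last introns is over the 1525 genes in which the last is not also the third.

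**Figure D4:**
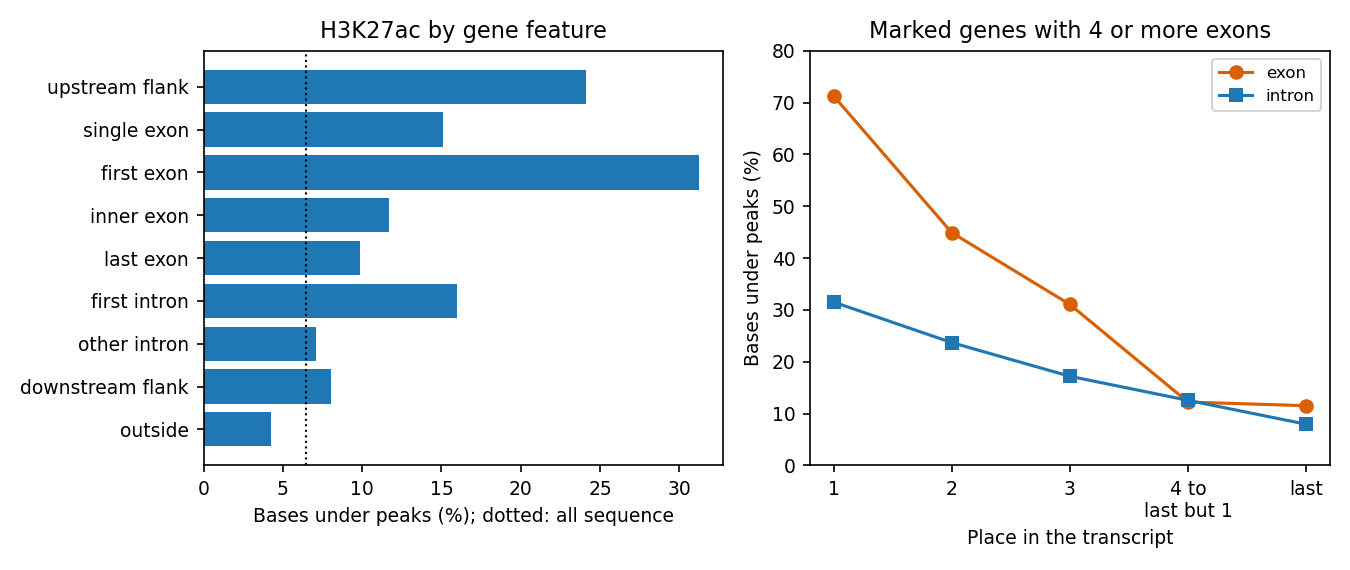
H3K27ac over exons and introns. Left, the percent of bases under peaks in each feature of the 11868 genes, with the value of all sequence (6.44%) dotted, led by first exons (31.2%) and the 200 bp upstream flank (24.1%). Right, the percent covered by place in the transcript, over 2167 marked genes with 4 or more exons, which falls from 71.3% to 11.5% in exons (orange) and from 31.5% to 7.93% in introns (blue).

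Intron peaks sat in long introns, most often the first or second of a transcript. The 557 peaks that touched introns only lie whole inside a single intron by definition. That intron had a median length of 15564 bp, while the median of all introns was 95 bp. The intron was the first of a transcript for 261 (46.9%, interval 42.7 to 51.0%) and the second for 193 (34.6%). Of all 5145 introns of 2000 bp or longer, 36.9% (interval 35.6 to 38.2%) were first introns. This set was not matched in length to the introns that hold the peaks, and its share of second introns was not computed. These peaks were centred a median of 7896 bp from the nearest start, and a peak has to be shorter than its intron to be counted here. An exon was held whole by 3051 peaks (46.0%).

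Along the chromosomes the peaks stood in close groups separated by long bare stretches. The gap from a peak to the next had a median of 6149 bp and a mean of 38069 bp, and its quartiles were 1146 and 26204 bp. Of the 6633 gaps, 1118 (16.9%) were under 500 bp and 1541 (23.2%) under 1000 bp. At the other end, 636 gaps (9.59%) of 100000 bp or more made up 67.6% of all the sequence between peaks. These values count UNKN, where the 83 peaks had a median gap of 327123.5 bp. Without UNKN the median gap was 6039 bp, and the mean and the share in long gaps were not recomputed. The nearest neighbour was under 1000 bp away for 2658 peaks (40.0%), and 262 peaks (3.95%) had none within 50000 bp.

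Neighbours within 1000 bp of each other mostly shared a gene where both touched a class "=" gene. Both peaks touched such a gene in 770 of the 1541 pairs (50.0%). A common gene was touched in 591 of these 770, or 38.4% of all 1541 pairs (interval 36.0 to 40.8%). The other pairs had a peak outside the class "=" genes, and whether they share a transcript of another class was not tested. Of the peaks with a neighbour this close 35.2% were at a promoter, and of those with the nearest at 5000 to 20000 bp 55.2%, with median scores of 271 and 237. The 262 peaks alone within 50000 bp had a median score of 175, and 53.8% of them were at a promoter. The score of a peak said little about that of the next, with a rho of 0.05 over the 1541 close pairs and 0.03 over the 2712 pairs 10000 bp or more apart.

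The 5 arms differed little in spacing, with the median gap lowest on 2R (5680 bp) and highest on 3L (7188.5 bp). They carried 31.3 peaks per Mb on 2L, 30.3 on 2R, 27.0 on X, 26.5 on 3L and 25.9 on 3R. Per gene used, the order was another, from 0.678 peaks on X and 0.624 on 3L to 0.545 on 2R. The share of peaks touching a gene was lowest on 3L (50.8%) and highest on 2R (70.8%), and 3L also had the lowest share of genes with a peak, 549 of 1784 (30.8%, interval 28.7 to 33.0%). UNKN had 1.96 peaks per Mb, and 29 of its 536 genes (5.41%) carried a peak. How much of UNKN the reads could reach was not examined.

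**Figure D5:**
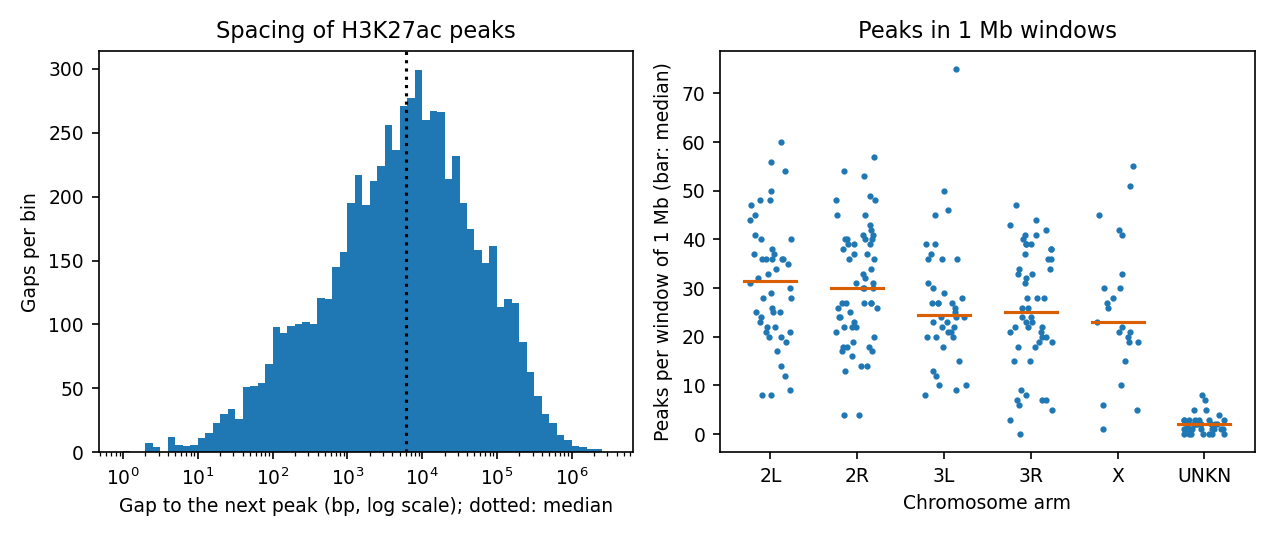
Spacing of H3K27ac peaks. Left, the gap in bp from each peak to the next (log axis), with the median of 6149 bp dotted and gaps from 1 bp to 2367312 bp. Right, peaks per window of 1 Mb on each arm and the unplaced sequence (UNKN), each point a window and each bar a median, with 75 peaks in the fullest window on 3L and 0 in the emptiest of the placed arms, on 3R.

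Windows of 1000000 bp on the placed arms held from 0 to 75 peaks, with a median of 27 over 223 windows, and 75 windows (33.6%) held 50% of the peaks. The fullest was 3L from 38000001 to 39000000, with 75 peaks, where 42 of 69 genes were marked, beside 34.8% of all genes. This window was chosen for its many peaks, which favours marked genes. It holds both gene models of EcR, the ecdysone receptor, AGAP012210 and AGAP012211, each with a single intron peak (scores 143 and 225). Next came 2L from 48000001 (60 peaks), which holds LANB2, 2R from 11000001 (57), 2L from 47000001 (56) and X from 5000001 (55). The median score in the fullest window, 225, was no higher than over all peaks, and it was 385 in the window with LANB2.

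The emptiest windows were 3R from 40000001 (no peak, 4 genes), X from 21000001 (1 peak, 8 genes), 3R from 29000001 (3 peaks, 31 genes) and 2R from 59000001 and 60000001 (4 peaks each, 15 and 10 genes). The widest gap, on 3R from 39166429 to 41533740, held 18 genes whole, the first of which was AGAP009704. Others were 1041639 bp wide on 3L with 21 genes, 949242 bp on 3R with 25 genes, 907405 bp on 2R with 9 genes and 905199 bp on 3R with 5 genes. The gap on 2R, between 59571525 and 60478929, holds AGAP004659 and AGAP004660, homeotic genes of the Antennapedia type, which in Drosophila set segment identity and are classic Polycomb targets. Wide gaps were thus not free of genes, and whether reads could be placed in them was not examined.

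Genes that the study listed for infection and insecticide resistance carried H3K27ac in 18 of 61 cases (29.5%, interval 19.6 to 41.9%), beside 34.8% of all genes. The list holds 66 genes, of which CTL5, CTL6, CTL7, HPX15 and IAP1 have no class "=" transcript. The study chose the list and looked at it in these same libraries, so the count is no independent evidence. The median of the best score per marked gene was 346 in the list and 368 over all 4131 marked genes.

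Signalling genes of the immune pathways ranged from strong peaks to none. CACTUS (AGAP007938), the inhibitor of Toll signalling, lay whole inside a peak of 4466 bp with a score of 1343, which touched 3 genes. CASPAR (AGAP006473), which restrains the IMD pathway, had a peak of 3142 bp with a score of 1443 over its start. REL2 (AGAP006747), the NF-kappaB factor of IMD, had 2 weaker peaks 143 bp apart with scores of 282 and 104, the second over its start. REL1 (AGAP009515), the NF-kappaB factor of Toll, was not marked, though a peak edge lay 511 bp from its start.

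SRPN10 (AGAP005246), a serpin expressed in the invaded midgut, had the highest score of the list, 3001, in a peak of 5637 bp over 92.7% of its body. LANB2 (AGAP007629), the laminin gamma chain of the basement membrane on which the parasite settles, had peaks with scores of 978 and 494 that were 160 bp apart and covered 96.4% of its body. In Act5C, LANB2 and REL2, the listed and control genes with 2 peaks, the gap between them was thus 160 bp or less.

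Of 6 modelled inhibitors of apoptosis, which block caspases, 3 were marked, beside 34.8% of all genes, with scores of 594 in IAP2, 562 in IAP4 and 126 in IAP7. The start of IAP5 (AGAP008420) was 284 bp from a peak edge, that of IAP3 2744 bp and that of IAP8 4255 bp. IAP3, IAP4 and IAP7 are neighbours on 2L and not independent cases. Among carboxypeptidases B, AGAP006209 lay whole under a peak with a score of 697, AGAP006207 had 110.0 at its start and AGAP006206 had 57.3 in its body. The neighbours AGAP006208 and AGAP006210 had none, with the nearest edges 1444 and 4503 bp from their starts, and AGAP008070 on 3R had none within 34744 bp of its start. Acetylation within this cluster on 2L thus ran from whole cover to none between adjacent genes.

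Antimicrobial peptide genes were marked where they shared a peak with a neighbour. CEC1 and CEC3, cecropin genes on X, lay whole inside the same peak of 5040 bp, whose score was 132, and count as 2 genes but 1 peak. CEC2 was 1625 bp from the nearest edge and CEC4, on 2L, 61015 bp. DEF2 (AGAP004632), a defensin gene of 282 bp, was held whole by a peak with a score of 410 that touched 3 genes. Of 6 modelled C-type lectin genes only CTL3 (AGAP004810) was marked, beside 34.8% of all genes. CTL3 lay whole inside a peak of 9154 bp with a score of 704, which also touched 3 genes. The other 4 defensins were 5191 to 19513 bp from a peak, and the gambicin gene GAM1 was 40046 bp away. For these short genes a peak cannot be given to 1 gene rather than to its neighbours.

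The listed genes of melanization and of the complement-like system lay far from any H3K27ac peak. None of 9 prophenoloxidase genes was marked, beside 34.8% of all genes. The distance from start to the nearest peak edge ran from 31288 bp for PPO1 to 443947 bp for PPO5. PPO5 is on UNKN, where 5.41% of genes carried a peak. PPO3, PPO4, PPO6, PPO7, PPO8 and PPO9 stand in 1 stretch of 2L with no peak, so they are not independent cases. The APL1 genes were 202882 to 215598 bp away, LRIM1 104730 bp and TEP1 118968 bp, and Vg was 70234 bp away. Over all 7737 unmarked genes the median distance was 15216 bp, with quartiles of 5165 and 45255 bp, and 33.7% were 30000 bp or more away. Of the 43 unmarked genes of the list, 25 were that far, and 3 (IAP5, REL1 and CTL1, with 667 bp) were under 1000 bp away.

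Among genes of insecticide resistance and of nitric oxide metabolism the only peak was weak. The genes are few, and 34.8% of all genes carried a peak, so their counts are not read as a result about these groups. Of 4 CYP6 cytochrome P450 genes, CYP6AK1 (AGAP010961) carried a peak of 628 bp, shared with another gene, with a score of 59.7, the second lowest of the list, 520 bp from its start. The acetylcholinesterase gene ACE1 was 35476 bp from a peak and Kdr, the sodium channel gene that pyrethroids and DDT target, 68765 bp although it is 73460 bp long. Both NOS models, nitric oxide synthase genes of which AGAP008257 lies within the span of AGAP008255, were 34214 and 56861 bp away, and the NADPH oxidase gene NOX5 18315 bp. Dscam, the hypervariable immune receptor gene, had no peak in its 17267 bp, and the nearest was 32560 bp from its start.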

How the data were processed

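The authors mapped ChIP and input reads to AgamP4 with Bowtie (1.0.0 in the submitters' processing notes), left out repetitive matches and duplicates, evened the read numbers of ChIP and input, and called H3K27ac peaks with MACS (1.4 in the notes) against the input. The deposited list gives each peak's start, end and score. The deposited score is -10 log10 of a p-value, with no replicate behind it and no read counts, so the depth of a single peak is unknown. RNA reads were mapped with TopHat2 2.0.10 and assembled with Cufflinks 2.1.1 by the authors. The merged transcripts gave gene positions only. H3K27me3 regions were counted and otherwise left aside, and RNA levels were not analysed here.

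Overlaps, distances and coverage were computed in Python 3.11.15 with numpy 2.4.6, pandas 2.3.3 and scipy 1.17.1, and drawn with matplotlib 3.10.9. They were tested on simulated data against direct counting. Starts in the BED list count from 0 and were raised by 1. Peaks were assigned to genes at 1 bp of overlap with class "=" spans and 200 bp flanks. Genes named were those of the study's candidate list and primer table, those at the 10 highest scores, the 10 with the most peaks, and those at the widest gaps and extreme windows. Symbols came from the study's tables, since the RefSeq table used carries none of the identifiers. Members and lists were chosen with earlier results of these data known. No test between samples was possible with 1 library. Shares have 95% Wilson intervals.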

Additional observations from a re-analysis of the deposited data

How the results depend on the processing

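Of 45 recomputed values, 23 stayed close to those reported and 22 moved. A reversal was defined only for the promoter to other score ratio, where none occurred. A count was taken as close within 1.5 times, a ratio within 1.1 times and a share or median within its 95% interval. Leaving out UNKN moved none of the 9 values. With the 3320 peaks scoring at or above the median, 2518 genes had a peak, 316 had 2 or more and 10 of the listed genes were marked, the share of peaks in genes was 67.0%, the median score 629, the promoter to other score ratio 1.20 (1.52 with all peaks), the median distance to a start 2242 bp, the exon share of peak bases 18.6% and the median gap 17054.5 bp. Among the counts, the number of genes with 2 or more peaks moved most, to that 316, with the score filter. It was 468 where at least 50% of the peak had to lie in the gene and 1376 with 1000 bp flanks. The share of peaks in genes was then 53.8% and 68.3%, and it was 62.3% with no flank and 78.0% once transcripts of classes "j" and "o" stood in for genes lacking class "=". Joining peaks less than 500 bp apart left 5521 peaks, with a median score of 275 and a median gap of 9638 bp, and 534 genes with 2 or more. The median distance to a start was 903 bp from the nearest edge and 821 bp with the starts of every assembled transcript, the exon share 40.6% with exons of every transcript and 22.6% by midpoints, and the median spacing 9081 bp between midpoints. The depth of single peaks is unknown, so weak peaks near the authors' threshold may come and go with sequencing. No paired analysis was possible because there is 1 library.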

Other observations

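The peaks farthest from any start on the placed arms lay outside genes, and 4 of the 5 farthest scored under the median of all peaks. The farthest was on X from 10344295 to 10347325, with a score of 237 and its midpoint 152986 bp from a start, between AGAP000579 and AGAP000587. Next were peaks on 2L near 149467 bp from a start (score 173, between AGAP004694 and AGAP004696), on 3L at 141653 bp (score 52.4), on 2L at 136939 bp (score 101) and on 2R at 134774 bp (score 428, between AGAP002335 and AGAP002337). All 5 were measured from class "=" starts only.

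The 83 peaks on UNKN were short and weak beside those of the placed arms, with a median length of 1036 bp and a median score of 125, and none scored 3100 or more. Over the 223 windows of 1000000 bp on the placed arms, peak number and gene number had a Spearman's rho of 0.65. The windows share 1 library, and the value is a description.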
